A study of Mus musculus with 32 samples.

Results

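Cardiac muscle passes its electrical signal from cell to cell and turns it into calcium release, and 8 genes of that machinery were followed here in a mouse hepatocyte line and a mouse cardiomyocyte line. They were chosen by symbol: the connexins Gja1 and Gjc1, the calcium channel Cacna1c, the calcium pump Atp2a2, the sodium-calcium exchanger Slc8a1, the ryanodine receptors Ryr1 and Ryr2, and the potassium channel Kcnh2. The HL-1 table listed all 8 among 55414 genes. The AML12 table listed 6 among 27843, and Gjc1 and Ryr2 were not analysed here in AML12. No AML12 gene listed was without counts, while 23808 of those listed for HL-1 were. Whether Gjc1 and Ryr2 were unlisted for want of reads was not tested.

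The study followed rhythmic communication between the lines in 32 RNA-seq libraries, in 8 groups of 4. AML12 cells, a hepatocyte line from a mouse carrying a human TGF-alpha transgene, were DEX-treated or control, at 25 h and at 17 h; the labels do not spell out DEX. HL-1 cells, an atrial line from a mouse tumour lineage, received AML12 medium that was either conditioned with DEX synchronization (CM) or a control without it, at 28 h and at 16 h. Every HL-1 group therefore had AML12-derived medium, and no group of HL-1 cells without it was analysed here. Whether the 4 libraries of each group were separate cultures is not stated in the labels, so the p-values reflect a spread that may be technical.

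Gap junctions are channels of connexin proteins that join the cytoplasm of neighbouring cells and let the action potential cross the intercalated disc of heart muscle. In a heartbeat, calcium enters through the L-type channel and triggers release from the sarcoplasmic reticulum through ryanodine receptors. The SERCA pump returns it to the store, the sodium-calcium exchanger moves it out of the cell, and ERG potassium channels help to end the action potential.

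Levels are in CPM, a gene's counts per M (mega) of TMM-scaled library counts. A library held 15.0 to 17.5 M counts in AML12 and 15.7 to 19.3 M in HL-1. Depth was greater with CM than in control HL-1 cells, at 18.6 ± 0.606 against 16.3 ± 0.722 M in controls at 16 h and 18.2 ± 0.753 against 16.6 ± 1.00 M at 28 h (SD, n = 4). Fold changes are log2 ± SE from edgeR's quasi-likelihood test over all 16 libraries of a line. Genes with a Benjamini-Hochberg adjusted p of at most 0.05 over all genes tested were called. Of 22 cardiomyocyte markers, 3 reached 10 CPM in HL-1, 16 averaged below 1 CPM and 4 of those (Myl3, Myl7, Mybpc3 and Pln) had no count, whereas 7 of 10 mesenchymal markers reached 10 CPM. In AML12, 3 of 10 hepatocyte markers and all 4 listed bile duct markers reached 10 CPM. Of the 3 cardiomyocyte markers, Tnnt2 averaged 34.5 CPM in HL-1 and 55.0 CPM in AML12. Gata4 averaged 18.1 and 22.8 CPM, and Des 524 and 2.43 CPM. Few defining markers of the labelled cell types were thus abundant. The AML12 DEX library at 17 h replicate 2 and the HL-1 control library at 16 h replicate 3 differed most from the others of their groups in counts over all genes. Without the first, DEX at 17 h gave 0.41 for Gja1 and 0.22 for Atp2a2 (log2). Without the other, CM at 16 h gave -0.24 for Gja1 and 0.95 for Ryr1, and all 4 were still called.

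Promoters are shown for Gja1, Ryr1 and Kcnh2, members whose treatment or time results are given below, 250 bases before to 50 after the annotated start (RefSeq, GRCm38.p6, 5′ to 3′ on the gene's strand). Capitals mark exact matches to the motifs searched on both strands. These were the E-box CACGTG, the partial glucocorticoid receptor motif AGAACA, AP-1 TGAGTCA, the CRE core TGACGT and the GC box GGGCGG. None of them contains another. AGAACA is only a part of a glucocorticoid receptor site, and full sites were not searched for.
Gja1 chr10:56377050-56377349, plus strand: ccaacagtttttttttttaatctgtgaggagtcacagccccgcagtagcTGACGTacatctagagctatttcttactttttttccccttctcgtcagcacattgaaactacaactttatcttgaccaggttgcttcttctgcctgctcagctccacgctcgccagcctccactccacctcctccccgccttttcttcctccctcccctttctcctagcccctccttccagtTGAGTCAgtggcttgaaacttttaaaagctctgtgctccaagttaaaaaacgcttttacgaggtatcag
Ryr1 chr7:29125102-29125401, minus strand: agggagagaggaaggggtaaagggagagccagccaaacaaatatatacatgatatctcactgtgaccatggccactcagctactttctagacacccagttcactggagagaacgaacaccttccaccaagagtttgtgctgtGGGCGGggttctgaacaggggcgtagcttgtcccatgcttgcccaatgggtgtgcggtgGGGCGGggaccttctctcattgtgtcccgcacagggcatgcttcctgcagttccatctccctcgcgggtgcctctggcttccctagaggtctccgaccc
Kcnh2 chr5:24329542-24329841, minus strand: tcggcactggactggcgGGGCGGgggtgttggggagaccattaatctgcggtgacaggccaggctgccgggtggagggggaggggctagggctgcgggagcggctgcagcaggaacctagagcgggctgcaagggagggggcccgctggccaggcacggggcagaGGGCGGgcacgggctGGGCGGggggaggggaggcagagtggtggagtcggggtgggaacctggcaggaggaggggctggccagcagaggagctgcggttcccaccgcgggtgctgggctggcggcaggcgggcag
The Gja1 window held an AP-1 match with its first base at -19 and a CRE core at -201, motifs present in 5.2% and 7.51% of 32851 promoters of the same length. The Ryr1 window held GC boxes at -108 and -49, and the Kcnh2 window held them at -233, -85 and -70. GC boxes were in 35.7% of promoters. None of the 3 windows held the E-box (7.15% of promoters) or the partial glucocorticoid receptor motif (19%). Windows of other members were searched too, except for Gjc1 and Atp2a2, which had no promoter entry in the reference used. That of Ryr2 held GC boxes at 40 and 44 after the start on the opposite strand, and that of Slc8a1 held none of the motifs. Of 3 windows of Cacna1c, 1 held 6 GC boxes between -196 and -164, and 1 held none of the motifs. The remaining window held the partial glucocorticoid receptor motif at -33 and -27, on opposite strands and directly adjoining. Whether these matches form a receptor site was not tested. The RefSeq start of Kcnh2 lies inside the GENCODE gene span. GC content was 47.7% for Gja1, 56.7% for Ryr1 and 74.3% for Kcnh2.

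Gja1 and Atp2a2 were abundant in HL-1, and the classical cardiac calcium entry, release and exchange genes had few or no counts per library. Levels per kilobase of exon, over the merged exons of all annotated transcripts, allow a rough comparison between genes. The transcripts used in these cells may be shorter, which was not tested. Atp2a2 averaged 63.8 CPM per kb over the 4 groups, Gja1 45.4, Gjc1 6.09, Kcnh2 1.85 and Ryr1 0.0676. Ryr2 had 0.0147, Slc8a1 0.00788 and Cacna1c 0.00104 CPM per kb. In AML12, Atp2a2 averaged 63.5 CPM per kb, Gja1 1.83 and Kcnh2 0.175. The lines were counted in separate tables, so no test was made between them.

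Several members were below 1 CPM. In AML12, Cacna1c (2 counts in 16 libraries), Slc8a1 (1 count) and Ryr1 (14 counts) were below 1 CPM in all 4 groups. AML12 Kcnh2 was below 1 CPM in 3 of 4 groups, with group means of 0.719 to 1.12 CPM. In HL-1, Cacna1c (6 counts), Slc8a1 (42 counts) and Ryr2 (117 counts) were below 1 CPM in all 4 groups, and Ryr1 was below it in control cells at 16 h (0.996 CPM). In the groups with 0 counts, the upper limit that 3 counts over the group set was 0.0448 to 0.0462 CPM, for counting error only. The filter on low counts left 3 members tested in AML12 (Gja1, Atp2a2 and Kcnh2) and 6 in HL-1 (all but Cacna1c and Slc8a1).

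**Figure D1:**
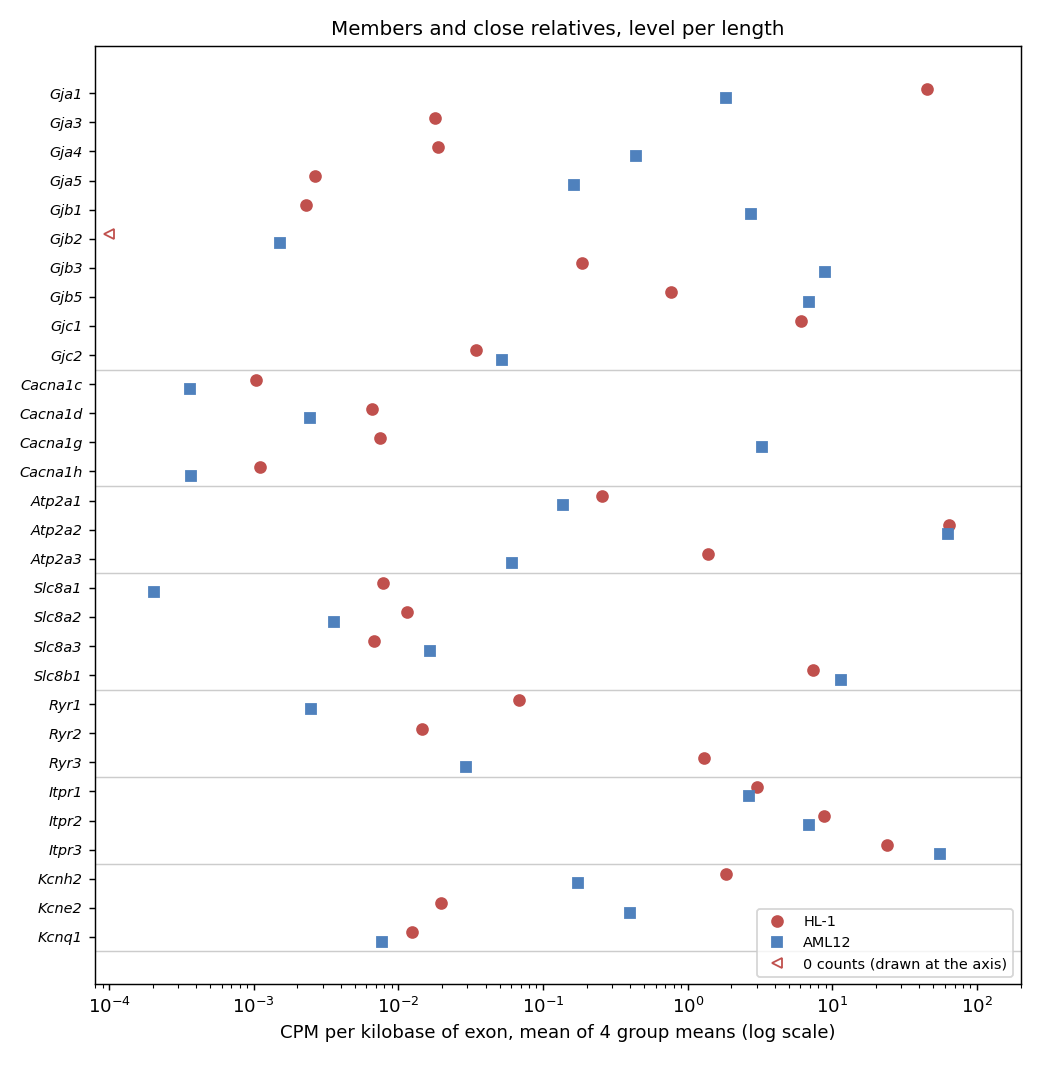
Level per kilobase of exon on a log axis for the members and their close relatives, as the mean of the 4 group means of HL-1 (circles) and AML12 (squares). Atp2a2 lies near 64 CPM per kb in both lines, and Gja1 lies at 45.4 in HL-1 and 1.83 in AML12.

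Close relatives, picked after their values were seen, were more abundant than several members. Among calcium release channels in HL-1, the IP3 receptor Itpr3 had 24.0 CPM per kb and Ryr3 1.30, against 0.0676 for Ryr1 and 0.0147 for Ryr2. The mitochondrial sodium-calcium exchanger Slc8b1 had 7.37 CPM per kb in HL-1, against 0.00788 for Slc8a1. In AML12 the T-type calcium channel Cacna1g had 3.29 CPM per kb, against 0.000363 for Cacna1c.

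Gja1 encodes Cx43, the main connexin of working heart muscle (chromosome 10, 56377330 to 56402513, plus strand, GRCm38). Gja1 RNA was lower in HL-1 cells given CM at both times. At 16 h the CM libraries had 450, 427, 447 and 433 CPM, and the controls had 525, 517, 493 and 502 CPM. At 28 h the CM libraries had 412, 395, 410 and 390 CPM, and the controls had 507, 514, 537 and 496 CPM. Every CM library was below every control library of its time. Gja1 fell by 13.7% at 16 h (log2 -0.21 ± 0.03, adjusted p = 0.000505) and fell by 21.8% at 28 h (-0.35 ± 0.03, adjusted p = 2.55e-07), with n = 4 per group in edgeR's test. The difference between these effects was -0.14 ± 0.05 (adjusted p = 0.462, unadjusted p = 0.00789) and was not called. In bulk RNA, fewer cells of a type and less RNA per cell cannot be told apart.

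Some summed cell type markers differed with CM in HL-1. The summed bile duct list, of which 3 of 5 markers reached 10 CPM and Epcam was at 0, was 1939 to 2080 CPM in CM against 2518 to 2729 CPM in control libraries at 16 h, and 1951 to 2193 CPM in CM against 2316 to 2408 CPM in controls at 28 h. The summed cardiomyocyte list was 470 to 544 CPM in CM against 388 to 476 CPM in controls at 16 h, which overlapped. It was 709 to 807 against 652 to 709 CPM at 28 h, where the nearest libraries both rounded to 709 CPM. These sums lay mostly in single genes, Spp1 (bile duct list, 2053 CPM on average over the 16 libraries) and Des (cardiomyocyte list, 524 CPM). The part of these markers, and of the greater depth of CM libraries, in the Gja1 result was not tested.

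Across time, Gja1 in CM cells fell by 8.51% at 28 h against 16 h (-0.13 ± 0.03, adjusted p = 0.00216), while the control cells differed by 0.01 ± 0.03 (95% interval -0.05 to 0.08, adjusted p = 0.764). The difference between these changes is the -0.14 ± 0.05 given above for the CM effects, which was not called. The order of group means was CM at 28 h, CM at 16 h, control at 16 h and control at 28 h, and the 2 control groups overlapped.

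Gjc1 encodes Cx45, the connexin of the conduction system and early heart (chromosome 11, 102799579 to 102819700, minus strand). It had 34.1, 35.9, 34.4 and 32.9 CPM in CM libraries at 16 h, against 31.6, 34.2, 30.7 and 33.8 CPM in controls. Its levels at 28 h were 30.7, 28.5, 25.1 and 28.1 CPM in CM libraries, against 27.2, 26.6, 25.8 and 27.4 CPM in controls. The groups overlapped at both times. The CM effect was 0.08 ± 0.06 at 16 h (95% interval -0.04 to 0.19, adjusted p = 0.732) and 0.07 ± 0.06 at 28 h (-0.05 to 0.19, adjusted p = 0.686). Gjc1 fell with time by 18.2% in CM cells (-0.29 ± 0.06, adjusted p = 0.000142) and fell by 17.9% in control cells (-0.29 ± 0.06, adjusted p = 0.000255).

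The ratio of Gja1 to Gjc1 RNA per kilobase was added after the values of both genes were seen and so is given with no test. This ratio does not depend on how libraries are scaled. Its size depends on the exon lengths used, and the order of its groups does not. It was 6.43, 5.80, 6.34 and 6.41 in CM libraries at 16 h against 8.09, 7.36, 7.84 and 7.25 in controls. The ratio at 28 h was 6.56, 6.76, 7.96 and 6.76 in CM libraries against 9.10, 9.44, 10.2 and 8.83 in controls. The groups did not overlap at either time. The mean difference, CM minus control, was -1.39 at 16 h and -2.37 at 28 h. With time, 28 h minus 16 h, it was 0.767 in CM cells and 1.75 in control cells, and again the groups did not overlap. Without CM replicate 3 at 28 h the difference in CM cells was 0.45.

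**Figure D2:**
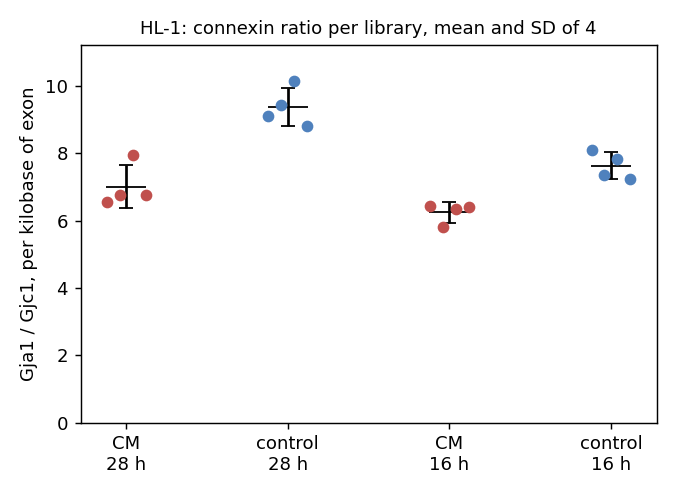
Ratio of Gja1 to Gjc1 CPM per kilobase of exon in each HL-1 library, with the mean and SD of 4 libraries. The CM libraries lie between 5.80 and 7.96, and the control libraries between 7.25 and 10.2.

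Atp2a2 encodes SERCA2, which pumps calcium into the store (chromosome 5, 122453513 to 122502225, minus strand). In HL-1 cells it had 432, 421, 433 and 437 CPM in CM libraries at 16 h, against 460, 459, 425 and 435 CPM in controls, and the groups overlapped (-0.05 ± 0.04, adjusted p = 0.727). At 28 h it had 325, 327, 338 and 315 CPM in CM libraries, against 347, 340, 370 and 348 CPM in controls. The groups did not overlap, yet the effect was not called (-0.11 ± 0.04, adjusted p = 0.166). Its called differences were with time. Atp2a2 fell by 24.3% in CM cells (-0.40 ± 0.04, adjusted p = 3.98e-10) and fell by 21.1% in control cells (-0.34 ± 0.04, adjusted p = 8.55e-09), and libraries at 28 h all lay below those at 16 h. Marker sums also differed with time in HL-1, where Vim (6277 CPM on average) was most of the mesenchymal sum. Des and Spp1 were most of the cardiomyocyte and bile duct sums. The cardiomyocyte sum was 709 to 807 CPM at 28 h against 470 to 544 CPM at 16 h in CM cells, and 652 to 709 against 388 to 476 CPM in control cells. The mesenchymal sum was 8972 to 10037 CPM at 28 h against 7884 to 8579 CPM at 16 h in CM cells, and 9545 to 10081 against 7675 to 8943 CPM in control cells. The bile duct sum in control cells was 2316 to 2408 CPM at 28 h against 2518 to 2729 CPM at 16 h, and it overlapped in CM cells. Hepatocyte, endothelial and immune sums were at most 10.4, 2.35 and 2.86 CPM in any HL-1 library, with 6 of 10 hepatocyte markers at 0. The part of these markers in the changes of Gja1, Gjc1, Atp2a2, Ryr2 and Kcnh2 with time was not tested.

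Cacna1c, the pore of the cardiac L-type channel (chromosome 6, 118587240 to 119196418, minus strand), and Slc8a1, the plasma membrane exchanger (chromosome 17, 81373105 to 81738377, minus strand), were too low to test. Cacna1c had 1 count at most in any CM library and 2 at most in any control library. Slc8a1 ranged from 0 to 8 counts in CM libraries and from 0 to 4 counts in controls. Their CM effects were not detectable at this depth.

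Ryr1 encodes the skeletal muscle ryanodine receptor (chromosome 7, 29003344 to 29125179, minus strand), and Ryr2 the cardiac one (chromosome 13, 11553102 to 12106945, minus strand). Ryr1 had 36, 33, 36 and 35 counts in CM libraries at 16 h (1.86, 1.80, 1.92 and 1.97 CPM), against 19, 12, 17 and 17 counts in controls (1.08, 0.750, 1.10 and 1.06 CPM). The groups did not overlap, and Ryr1 rose by 88.2% (0.91 ± 0.21, adjusted p = 0.0138). Without control replicate 2 the change was 0.79 and the adjusted p 0.0754. At 28 h it had 1.54, 1.57, 1.90 and 2.26 CPM in CM libraries, against 1.11, 1.25, 1.16 and 1.32 CPM in controls (0.59 ± 0.20, adjusted p = 0.164), and again the groups did not overlap. These rest on few counts. Ryr1 shares 914 exon bases with genes on the other strand, and the strand setting of the counting is not given in the sources used here, so reads of such partners cannot be told apart. The cardiac Ryr2 had 14, 4, 8 and 11 counts in CM libraries at 16 h, against 13, 10, 11 and 12 counts in controls (-0.50 ± 0.35, adjusted p = 0.688). The 28 h counts were 9, 3, 6 and 4 counts in CM libraries, against 2, 5, 3 and 2 counts in controls (0.71 ± 0.52, adjusted p = 0.613). Across time Ryr2 was called in control cells (-1.92 ± 0.45, adjusted p = 0.000561) and not in CM cells (-0.71 ± 0.41, adjusted p = 0.132). The difference between these changes, which is also that between the CM effects, was 1.21 ± 0.63 by edgeR's test (adjusted p = 0.768) and was not called. Ryr2 passed the filter through the control libraries at 16 h, where it was highest, so its fall in control cells is a description.

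Kcnh2 encodes the ERG potassium channel (chromosome 5, 24319589 to 24351604, minus strand). In HL-1 it had 5.46, 10.5, 8.25 and 8.59 CPM in CM libraries at 16 h, against 4.55, 6.75, 7.80 and 6.54 CPM in controls (0.36 ± 0.16, adjusted p = 0.393). At 28 h it had 10.7, 10.8, 11.1 and 13.7 CPM in CM libraries, against 9.47, 10.9, 9.82 and 8.75 CPM in controls (0.25 ± 0.15, adjusted p = 0.492). The groups overlapped at both times. Kcnh2 rose with time, by 41.7% in CM cells (0.50 ± 0.15, adjusted p = 0.00393) and by 52.6% in control cells (0.61 ± 0.16, adjusted p = 0.00171), while Gjc1 and Atp2a2 fell.

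**Figure D3:**
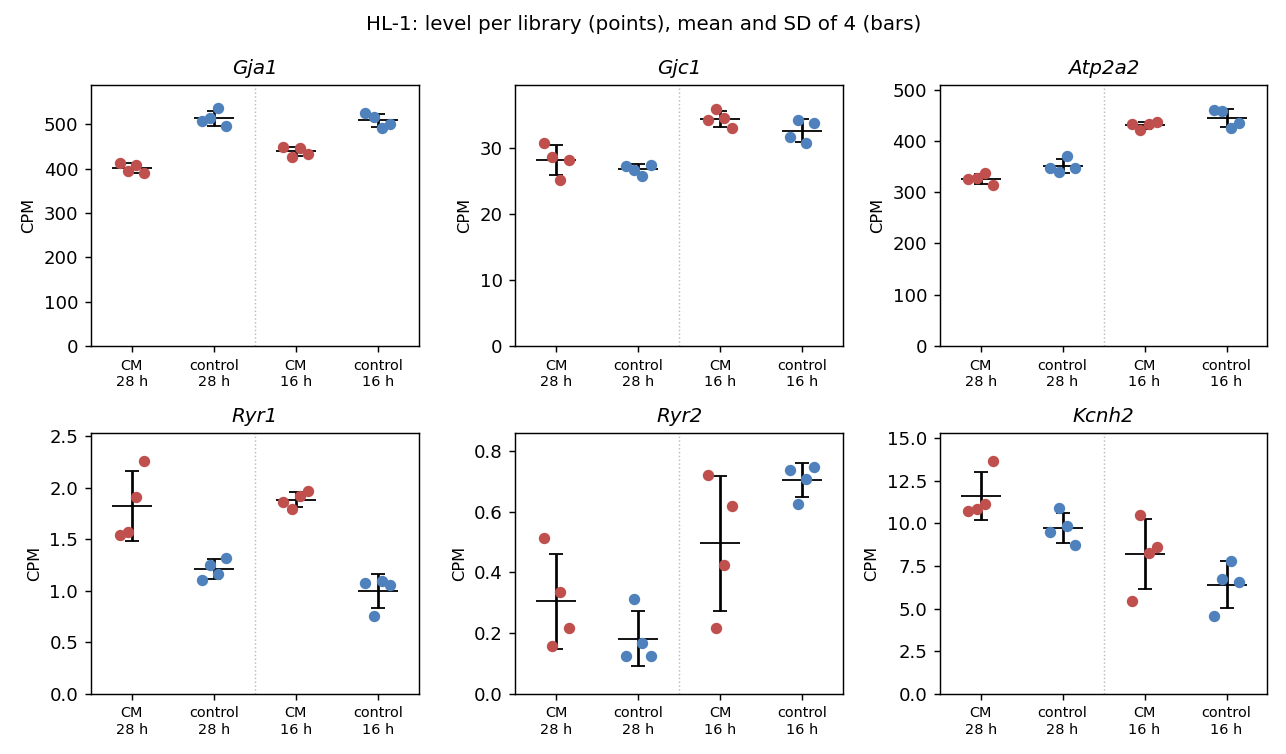
CPM of the 6 members tested in HL-1, per library (points) with the mean and SD of 4 libraries. Gja1 is lower in CM than in control cells at both times, and Ryr1 is higher in every CM library than in the controls of its time.

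In counts, 2 of 6 tested members were called with CM at 16 h, Ryr1 higher and Gja1 lower, where 2.03% of all genes were called (0.83% higher, 1.2% lower). With CM at 28 h, 1 of 6 was called, Gja1, where 1.92% of all genes were called (1.22% lower). The difference between the times was called for 0 of 6 members (0.277% of all genes), with 1 at an unadjusted p under 0.05 and 0 by DESeq2 and limma-voom. With time, 1 of 6 members rose and 3 fell in CM cells, where 65.4% of all genes were called (32.6% higher, 32.9% lower). In control cells 1 rose and 3 fell, where 62.8% were called (31.5% higher, 31.3% lower). Ryr2, among those that fell, passed the filter through the reference libraries of this contrast, so its call is a description. With time, the 4 of 6 members called in either direction are a share near the background, and nothing is read from it. The treatment and time contrasts share libraries.

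In AML12 cells, Gja1 and Atp2a2 were higher with DEX at 17 h. Gja1 had 26.9, 25.4, 24.9 and 23.6 CPM in DEX libraries, against 19.4, 20.2, 17.5 and 18.6 CPM in controls, so that it rose by 33.4% (0.42 ± 0.08, adjusted p = 0.000124). Atp2a2 had 453, 431, 452 and 454 CPM in DEX libraries, against 403, 396, 375 and 374 CPM in controls, and rose by 15.7% (0.21 ± 0.04, adjusted p = 0.000117). Neither pair of groups overlapped. These are 2 of 3 tested members, where 38.4% of all genes were called (20.5% higher).

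At 25 h Gja1 had 14.6, 16.6, 17.8 and 19.9 CPM in DEX libraries, against 14.4, 14.1, 13.3 and 12.5 CPM in controls (0.34 ± 0.08, adjusted p = 0.00721). The groups did not overlap, but without DEX replicate 4 the change was 0.25 and the adjusted p 0.0607. Atp2a2 had 373, 363, 363 and 355 CPM in DEX libraries, against 360, 350, 348 and 327 CPM in controls (0.07 ± 0.04, adjusted p = 0.282), and these overlapped. Of 3 tested members 1 was called, Gja1, where 11.8% of all genes were (6.79% higher).

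The DEX effects at 25 h and 17 h differed by -0.07 ± 0.11 for Gja1 (adjusted p = 0.734) and by -0.14 ± 0.06 for Atp2a2 (adjusted p = 0.0933). No member of 3 was called for this difference (16.2% of all genes were), 1 had an unadjusted p under 0.05, and DESeq2 and limma-voom called 0. For Atp2a2 the adjusted p was 0.0245 without DEX replicate 2 at 17 h and 0.0394 without control replicate 4 at 25 h. The summed hepatocyte markers were 301 to 319 CPM in DEX against 410 to 447 CPM in control libraries at 17 h, and 428 to 449 against 402 to 443 CPM at 25 h. At 25 h the bile duct sum (4 of 5 markers listed, all above 10 CPM) was 3860 to 4107 CPM in DEX against 4251 to 4485 CPM in control libraries. The mesenchymal sum (8 of 10 listed, 6 below 1 CPM) was 2369 to 2533 against 2181 to 2316 CPM, and the cardiomyocyte sum (15 of 22 listed, 10 below 1 CPM) 93.6 to 100.1 against 80.3 to 92.2 CPM. These 3 sums overlapped at 17 h. The mesenchymal sum was nearly all Vim, at 2374 CPM on average over the 16 libraries, with Col1a1 next at 3.98 CPM. Tnnt2 (55.0 CPM) was the largest part of the cardiomyocyte sum. Endothelial and immune sums were at most 5.58 and 5.25 CPM in any AML12 library. The part of these markers in the DEX results was not tested.

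Kcnh2 had 0.544, 1.20, 0.792 and 0.617 CPM in AML12 DEX libraries at 17 h, against 0.897, 0.324, 0.799 and 1.05 CPM in controls (0.02 ± 0.31, adjusted p = 0.970). At 25 h it had 0.762, 0.519, 0.558 and 1.04 CPM in DEX libraries, against 1.14, 1.09, 1.04 and 1.21 CPM in controls (-0.64 ± 0.29, adjusted p = 0.176), at 9 to 21 counts per library. The groups at 25 h did not overlap, though their nearest libraries both rounded to 1.04 CPM.

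With time, 2 of 3 tested members fell in DEX cells (56% of all genes were called, 28.2% lower) and 2 of 3 in control cells (43.5%, 21.4% lower). Gja1 fell by 31.7% in DEX cells (-0.55 ± 0.08, adjusted p = 2.09e-06) and fell by 28.1% in controls (-0.48 ± 0.08, adjusted p = 6.23e-05). Atp2a2 fell by 18.7% in DEX cells (-0.30 ± 0.04, adjusted p = 5.73e-07) and fell by 10.5% in controls (-0.16 ± 0.04, adjusted p = 0.00177). Kcnh2 was not called in either. The bile duct sum was 3860 to 4107 CPM at 25 h against 3339 to 3541 CPM at 17 h in DEX cells, and 4251 to 4485 against 3434 to 3625 CPM in control cells. In DEX cells the hepatocyte sum was 428 to 449 CPM at 25 h against 301 to 319 CPM at 17 h, and the cardiomyocyte sum 93.6 to 100.1 against 80.1 to 86.5 CPM. Their part in the changes with time was not tested.

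**Figure D4:**
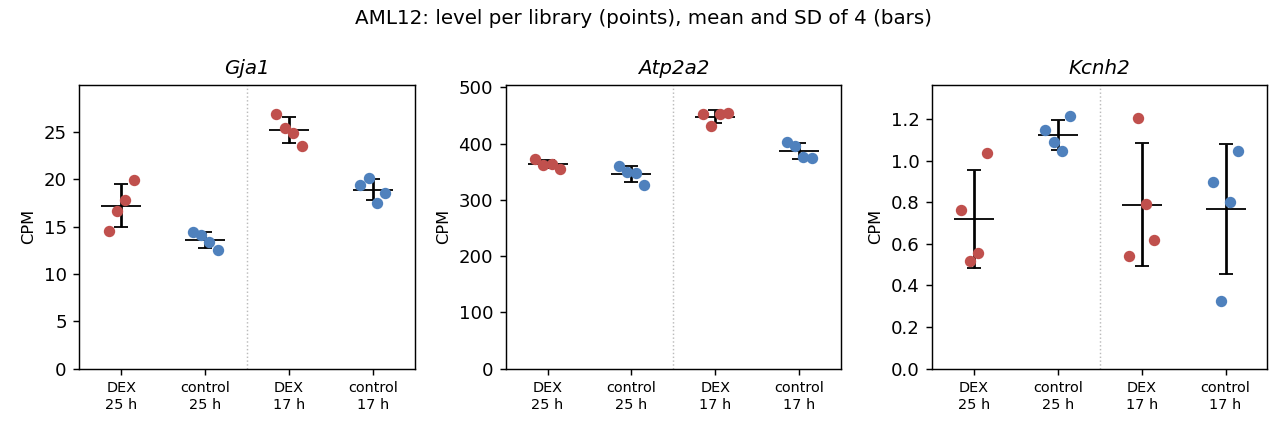
CPM of the 3 members tested in AML12, per library (points) with the mean and SD of 4 libraries. Gja1 and Atp2a2 are highest in DEX cells at 17 h.

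**Figure D5:**
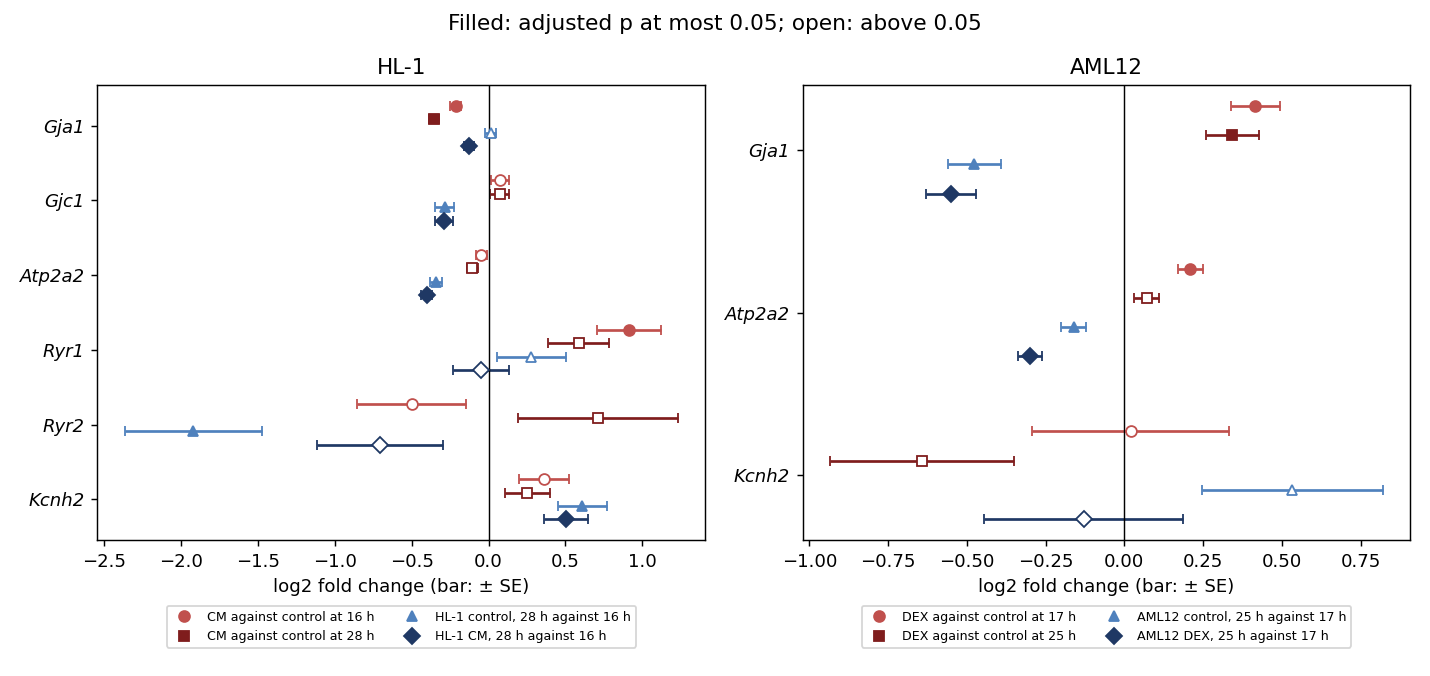
log2 fold change ± SE of each tested member in the treatment and time contrasts of each line, filled where the adjusted p was at most 0.05. Gja1 lies at -0.21 and -0.35 with CM in HL-1, and at 0.42 and 0.34 with DEX in AML12.

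The wider machinery was described by 4 lists. In HL-1, where 2.03% of all genes were called with CM at 16 h and 1.92% at 28 h, Gja1 was the 1 of 4 tested connexins called at each time. The intercalated disc list had 0 of 14 called at 16 h and at 28 h, with 3 and 4 genes at an unadjusted p under 0.05; DESeq2 called 0 and 3, limma-voom 0 and 2. It had 1 called at 16 h without control replicate 3, and 1 at 28 h without CM replicate 1 or CM replicate 2. The channel list had 0 of 10 called at both times, with 2 genes each at an unadjusted p under 0.05 and 0 by DESeq2 and limma-voom. The calcium handling list had 1 of 48 up at 16 h, Ryr1, and 1 up and 4 down at 28 h. Its share called was 2.08% at 16 h, near the background, and 10.4% at 28 h. Median log2 fold changes with CM at 16 h were -0.23 for connexins, -8.2e-05 for disc genes, -0.0076 for calcium handling genes and -0.0050 for channels, against 0.0046 over all genes. At 28 h the medians were 0.09 for connexins, 0.02 for disc genes, -0.013 for calcium handling genes and -0.04 for channels, against -0.011 over all genes. Those named at 28 h were the calcineurin regulator Rcan1 (21.9 ± 1.03 CPM in CM against 32.0 ± 1.11 CPM in control cells, -0.55 ± 0.07, adjusted p = 1.6e-05), the pump Atp2a3 (5.80 ± 1.17 against 9.84 ± 0.984 CPM, -0.76 ± 0.13, adjusted p = 0.00112) and Ryr3 (30.6 ± 1.88 against 24.9 ± 1.91 CPM, 0.30 ± 0.06, adjusted p = 0.0102). Ryr3 lost its call without any of 3 libraries, control replicates 2 and 3 and CM replicate 1, at an adjusted p of 0.0522 to 0.0571. Without either of these controls the list had 3 called. The difference of each effect between the times was not called (adjusted p = 0.252 to 0.719).

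In AML12 at 17 h, where 38.4% of all genes were called, 1 connexin of 7 rose and 3 fell with DEX. Those that fell included Gjb1, the main hepatocyte connexin (3.38 ± 0.423 CPM in DEX against 6.39 ± 0.607 CPM in control cells, -0.91 ± 0.12, adjusted p = 1.39e-06), and Gja5 (0.386 ± 0.134 against 1.44 ± 0.371 CPM, -1.89 ± 0.30, adjusted p = 1.97e-05). The Gja5 result rests on few counts, 25 over the 4 DEX libraries and 95 over the 4 controls. Of 15 tested disc genes, 6 rose and 5 fell. The scaffold Tjp1 rose to 494 ± 42.5 CPM in DEX cells, against 341 ± 13.3 CPM in controls (0.54 ± 0.05, adjusted p = 2.75e-09), and the cadherin Dsg2 fell to 250 ± 16.2 CPM, against 320 ± 5.89 CPM (-0.35 ± 0.04, adjusted p = 4.73e-07). Of 41 calcium handling genes, 11 rose and 14 fell. The calcium-calmodulin kinase Camk2d rose (0.87 ± 0.04, adjusted p = 7.85e-14) and the plasma membrane calcium pump Atp2b4 fell (-0.95 ± 0.05, adjusted p = 1.25e-13). Of 10 channel and sodium pump genes, 3 rose and 3 fell, and the sodium pump subunit Atp1b1 was among those that rose (0.90 ± 0.07).

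At 25 h, where 11.8% of all genes were called, 1 connexin of 7 rose and 2 fell with DEX, 2 disc genes of 15 rose and 2 fell, 1 calcium handling gene of 41 rose and 5 fell, and 2 channel genes of 10 fell. The share of calcium handling genes called, 14.6%, was near the background, and that of channels, 20%, rests on these 2 genes. Without DEX replicate 4, connexins called numbered 1 and calcium handling genes 3. The channel count was 0 without DEX replicate 4, control replicate 2 or control replicate 3, and 1 without control replicate 1 or control replicate 4. Calr, a calcium binding protein of the endoplasmic reticulum, rose to 730 ± 11.6 CPM in DEX cells, against 608 ± 8.29 CPM in controls (0.26 ± 0.03, adjusted p = 5.78e-06). Medians with DEX were -0.17 at both times for connexins. For disc genes, calcium handling genes and channels they were -0.03, 0.02 and 0.10 at 17 h (0.0044 over all genes) and -0.04, 0.04 and 0.11 at 25 h (0.0017 over all genes). Cacna2d1, an accessory subunit of calcium channels, fell to 98.2 ± 5.39 CPM, against 122 ± 5.47 CPM (-0.32 ± 0.04, adjusted p = 1.82e-05).

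By the fixed rule of likeness, the genes whose log2 CPM followed a member most closely over the 16 libraries of a line, which fall into 4 groups, were as follows. In HL-1, Gja1 was followed by Sema3e (Pearson r = 0.94), Ctsl (0.93) and Lbh (0.92). Gjc1 was followed by Zmym1 (0.95), Morc4 (0.94) and Mad1l1 (0.93). Atp2a2 was followed by Abcb1b (0.99), Fitm2 (0.98) and Ddx47 (0.98). In AML12, Gja1 was followed by Mtbp (0.98), Tmem97 (0.97) and Scd1 (0.97), and Atp2a2 by Eif4g1 (0.98), Psph (0.97) and Tuba1c (0.97).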

How the data were processed

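The authors deposited whole-number read counts per gene that were not normalized, in a table for each line. FastQC 0.11.8 and STAR with the builds mm10 and GRCm38 were used, per the submitters' processing notes. No source used here gives the counter, its strand setting or the annotation release. HL-1 CM columns are named DEX in their table and were tied to CM by the labels' descriptions.

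Genes kept by edgeR's filterByExpr (14114 in AML12, 14450 in HL-1) were TMM-scaled and tested with edgeR 4.0.16 in R 4.3.3, with 1 mean per group over 16 libraries. The SE is the log2 fold change divided by the root of F. Exon lengths and positions come from GENCODE M21 on GRCm38. The fit was tested on simulated data. Alternatives were RLE factors, total counts, no filter, DESeq2 1.42.0, voom of limma 3.58.1, a replicate block, fits without the uncompared groups, and leaving out single libraries. Genes were named by rule: all members, up to 3 called genes per list and contrast, and the 3 most alike genes, of which the text gives some. Some genes of the lists enter the counts and medians but are not reported by name here. Members and lists were chosen with earlier results of these data known.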

Additional observations from a re-analysis of the deposited data

Results flagged for a closer look

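Some values stood apart from the other 3 libraries of their group by Dixon's criterion, which chance meets in about 1 of 20 groups. Atp2a2 was at 431 CPM in AML12 DEX replicate 2 at 17 h (others 452 to 454). Ctnnb1 was at 1506 CPM in AML12 DEX replicate 3 at 17 h (others 1429 to 1438). Vcl was at 285 CPM in DEX replicate 4 at 25 h (others 323 to 327) and at 337 CPM in control replicate 4 at 25 h (others 364 to 370). Ryr1 was at 0.750 CPM in HL-1 control replicate 2 at 16 h (others 1.06 to 1.10), and Kcnh2 at 13.7 CPM in CM replicate 4 at 28 h (others 10.7 to 11.1). Where the other 3 libraries had 0, any count meets the criterion, so the rate of about 1 of 20 does not apply. The rest were such libraries, with 1 or 2 counts. These were Cacna1c at 0.0532 CPM in HL-1 CM replicate 3 at 16 h, 0.129 CPM in control replicate 3 at 16 h, 0.0629 CPM in control replicate 4 at 28 h and 0.123 CPM in AML12 control replicate 3 at 25 h, Slc8a1 at 0.0610 CPM in AML12 DEX replicate 4 at 25 h, and Ryr1 at 0.0673 CPM in AML12 control replicate 1 at 25 h.

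For 7 named genes of the wider lists the DEX effect on AML12 differed between the times by edgeR's test of the difference. The effect at 25 h minus that at 17 h was 1.71 ± 0.41 for Gja5, 0.73 for Atp2b4, 0.31 for Dsg2 and 0.20 for Ctnnb1 on the log2 scale. It was -0.86 for Camk2d, -0.73 for Atp1b1 and -0.50 for Tjp1. The Gja5 value rests on few counts, 25 to 95 per group of 4 libraries.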

How the results depend on the processing

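There were 45 member results, 18 of them called. The called ones include the fall of Ryr2 in HL-1 controls, which is a description. Of 304 values under the alternatives other than leaving out a library, 299 kept direction and side of the threshold, and none lost or gained a call. The 5 that turned direction were uncalled values near 0: Kcnh2 with DEX at 17 h (-0.016 with total counts), the Gjc1 difference of CM effects (0.0032 with RLE factors, 0.0048 with total counts and 0.0033 with DESeq2) and Gja1 over time in HL-1 controls (-0.00059 without the filter). When libraries were left out, 409 of 432 values kept both. Ranges of those that turned direction were -0.25 to 0.20 for Kcnh2 with DEX at 17 h, -0.35 to 0.13 for Kcnh2 over time in DEX cells, -0.048 to 0.046 for the Gjc1 and -0.24 to 0.056 for the Kcnh2 difference of CM effects, -0.016 to 0.029 for Gja1 over time in HL-1 controls and -0.17 to 0.021 for Ryr1 over time in CM cells. Members called ranged from 0 to 1 for DEX at 25 h and for the difference of DEX effects, and from 1 to 2 for CM at 16 h. Ryr2 over time in CM cells was called without CM replicate 2 at 16 h (adjusted p = 0.0465) and without CM replicate 1 at 28 h (0.0465). With DEX at 25 h, connexins called ranged from 1 to 3, calcium handling genes from 3 to 8 and channels from 0 to 2. The channels numbered 1 with DESeq2 and 1 with only the compared libraries. For CM at 16 h, disc genes and calcium handling genes each ranged from 0 to 1, and 1 disc gene was called without the filter. For CM at 28 h, calcium handling genes ranged from 3 to 6 and disc genes from 0 to 1. Disc genes called there were 2 with total counts, limma-voom, the replicate block and only the compared libraries, and 3 without the filter and with DESeq2. All genes called for CM at 28 h ranged from 170 (without CM replicate 3) to 334, with 179 without control replicate 1. For the difference of CM effects they numbered 40, and 97 without the filter and 68 with DESeq2. With total counts, rises were 62.2% of calls for the difference of DEX effects (48.9% with TMM) and 39.5% over time in AML12 controls (50.8% with TMM). The cause of these shifts was not tested. The replicate numbers did not pair the libraries (correlations of deviations from -0.12 to 0.12), and the replicate block changed no member call. The mean difference of the Gja1 to Gjc1 ratio ranged from -1.52 to -1.24 at 16 h and from -2.69 to -2.11 at 28 h with CM, and with time from 0.45 to 0.918 in CM cells and from 1.49 to 1.93 in control cells, when libraries were left out. Members below 1 CPM are limited by depth, at 5 to 19 counts per library for Kcnh2 in its 3 such AML12 groups, 12 to 19 for Ryr1 in HL-1 controls at 16 h and 0 to 14 for the others.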
